A study of Mus musculus with 5 samples.

Results

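A set of 34 genes of the skeletal muscle sarcomere, its calcium handling and its energy supply were followed in whole mouse lung. They were taken as every probe set on the array whose only gene symbol is that of a listed gene, which gave 55 probe sets for all 34 genes, out of 45101 probe sets and 18194 named genes. Each gene is represented by its brightest probe set, that with the largest mean log2 value, and levels are RMA intensities on a linear scale. A gene was taken as over the floor when its mean over the 5 arrays reached an intensity of 64, log2 6. By that rule 30 of the 34 genes were over the floor, and Tnni1, Hspb3, Cacna1s and Ryr1 were under it. Tmod4 and Neb passed through the 4D(+/+) array alone: without it their means were 61.2 and 53.4.

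There were 5 arrays of female, untreated mice, with 1 array for each strain. C57 is the C57BL/6J strain. The lines 4B(+/+) and 4B(-/-) carry intact or inactivated PDE4B, and 4D(+/+) and 4D(-/-) intact or inactivated PDE4D. Both genes encode phosphodiesterases, enzymes that break down cyclic AMP. All 4 lines descend from a C57BL/6 and 129/Ola mixed background, crossed back onto C57BL/6J over 11 or more generations. No animal received elastase, and no age is given. For every array, lungs of 5 mice were frozen and powdered and the RNA of 3 of them was combined, so the spread between animals cannot be seen. With 1 array per strain, differences are given as folds without a test, and 2-fold was taken as the size that counts. The number of arrays limits the precision. In bulk tissue, fewer cells of a type and less RNA per cell cannot be told apart.

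Skeletal muscle contracts when myosin heads of the thick filament pull on actin of the thin filament, within a repeating unit, the sarcomere, that is bounded by Z-discs and spanned by titin. Calcium released from the sarcoplasmic reticulum binds troponin on the thin filament and permits contraction. Fast and slow fibres use different isoforms of many of these proteins, with Myh4 as the fastest myosin, Myh1 and Myh2 as slower fast types, and Myh7 in slow fibres. Lung parenchyma has no skeletal muscle of its own, although the diaphragm, oesophagus and neck lie next to it and heart muscle extends into the pulmonary veins of mice.

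The arrays were alike over the genome at large and far apart for the muscle genes. Across the 11105 genes over the floor the highest and lowest arrays differed by a median of 1.22-fold, and for the 30 muscle genes by a median of 8.14-fold. The range was 2-fold or more in all 30, against 2.99% of all genes over the floor. The 4D(+/+) array was the highest of the 5 for each of the 30 genes, against 14.5% of all genes. Tmod4 and Neb are among the 30 through that array alone, and the others passed the floor without it. C57 was the lowest for 15 (background 18.4%), 4B(-/-) for 14 (background 18.8%) and 4D(-/-) for 1, Tcap (background 30.2%). The summed intensity of all 34 genes was 11612 in C57, 20323 in 4B(+/+), 13420 in 4B(-/-), 73242 in 4D(+/+) and 20099 in 4D(-/-). The sum was thus 6.31 times that of C57 in 4D(+/+), 1.75 and 1.73 times in 4B(+/+) and 4D(-/-), and 1.16 times in 4B(-/-).

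**Figure D1:**
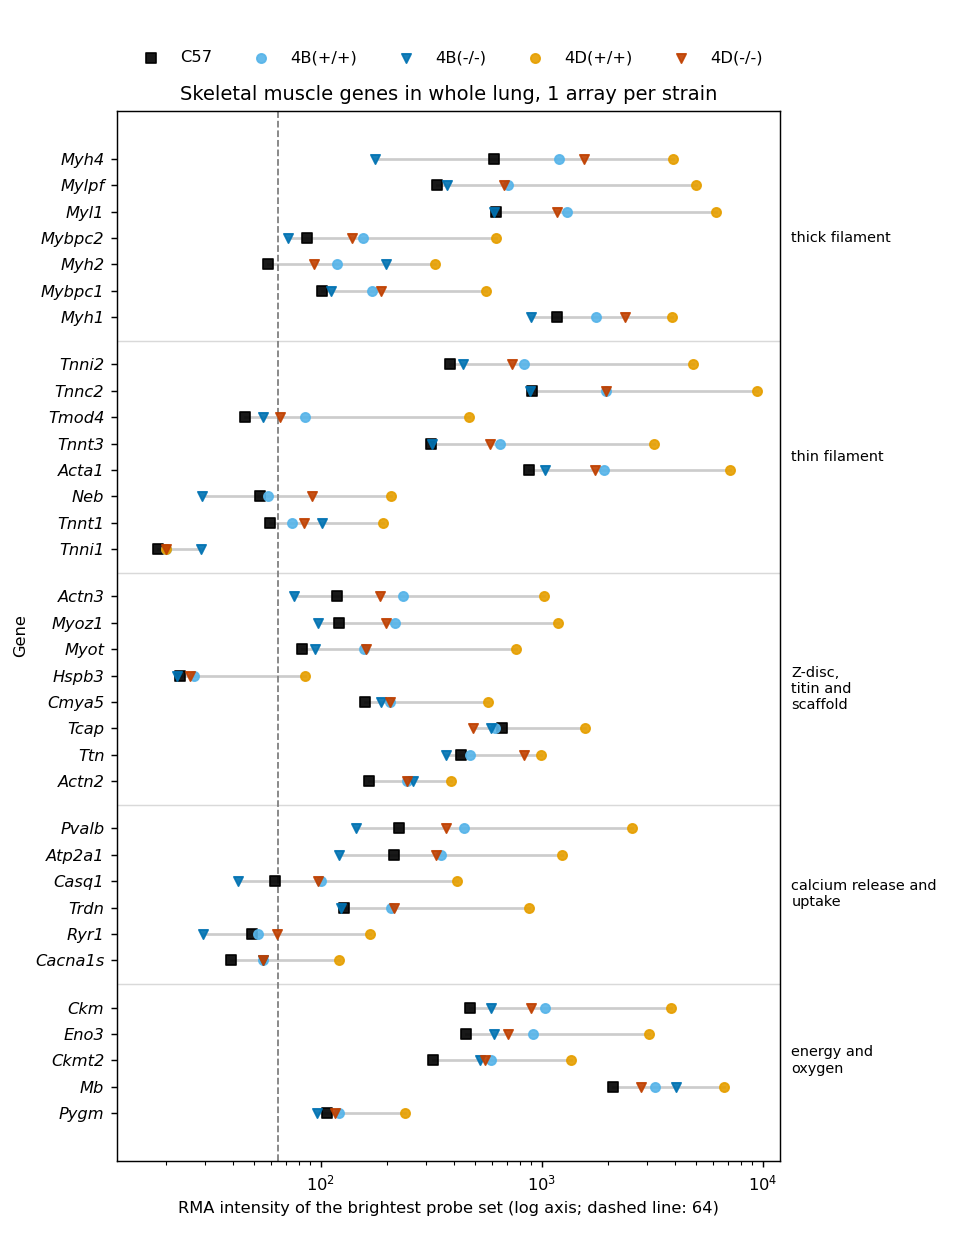
RMA intensity (log axis) of the brightest probe set of each of the 34 genes, by role, with 1 point for each of the 5 arrays and a grey line from the lowest to the highest. The 4D(+/+) points lie rightmost for all genes but Tnni1, while C57 or 4B(-/-) lies at the left end of nearly every line; the dashed line marks an intensity of 64.

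The thick filament genes encode the motor itself. Myh4, the fastest heavy chain, read 612 in C57, 1204 in 4B(+/+), 177 in 4B(-/-), 3920 in 4D(+/+) and 1562 in 4D(-/-). Its range of 22.2-fold was the widest among the 34 genes, with 4B(-/-) alone at the bottom, 3.47-fold under C57. Myh1 read 1172, 1765, 894, 3901 and 2393 in the same order of strains, and here 4D(-/-) was closest to 4D(+/+), 1.63-fold lower. Myh2, the oxidative fast heavy chain, had another order of arrays, with 57.8 in C57, 119 in 4B(+/+), 197 in 4B(-/-), 330.0 in 4D(+/+) and 93.2 in 4D(-/-). Here 4B(-/-) was the second highest array, and C57 lay under the intensity of 64. The 3 heavy chain genes are close paralogues, and how far a probe set of 1 of them also reads the others was not tested.

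In the light chains the lead of 4D(+/+) over C57 was larger than in the heavy chains. The regulatory light chain Mylpf read 338 in C57, 706 in 4B(+/+), 372 in 4B(-/-), 4979 in 4D(+/+) and 678 in 4D(-/-). The essential light chain Myl1 read 624, 1303, 610.4, 6157 and 1178. In both genes C57 and 4B(-/-) were nearly level at the bottom and 4B(+/+) and 4D(-/-) nearly level above them. Mybpc2, the fast myosin-binding protein C, read 87.3, 156, 71.3, 622 and 139. Mybpc1, the slow form, read 101, 171, 112, 559.9 and 188, with the same order of arrays except at the bottom and between 4B(+/+) and 4D(-/-).

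The thin filament genes encode skeletal actin, its ruler, its cap and the troponins. Acta1, skeletal actin, read 878 in C57, 1925 in 4B(+/+), 1034 in 4B(-/-), 7135 in 4D(+/+) and 1750 in 4D(-/-). Tnnc2, the calcium-binding subunit of fast troponin, read 902, 1953, 889, 9432 and 1949. Tnni2, the inhibitory subunit of the fast form, read 384, 830.0, 441, 4853 and 738. The 3 genes agree in placing 4D(+/+) far above a middle pair, 4B(+/+) and 4D(-/-), and a lower pair, C57 and 4B(-/-). Tnnt3, the fast tropomyosin-binding subunit, followed them with 316, 646, 321, 3242 and 587. Tmod4, which caps thin filaments, read 45.4, 85.4, 54.9, 467 and 65.8, so C57 and 4B(-/-) were under 64. Neb, the giant thin filament ruler nebulin, read 53.1, 57.6, 29.0, 208 and 91.8, with 3 arrays under 64. The slow troponin genes differed from these. Tnnt1 read 58.8, 74.1, 101, 193 and 84.2, with 4B(-/-) second. Tnni1 read between 18.3 and 28.8 in all 5 arrays, with 4B(-/-) highest, and was the only 1 of the 34 genes under 64 everywhere.

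Among Z-disc and scaffold genes, the fast fibre genes had wider ranges than those shared with the heart. Actn3, the alpha-actinin of fast fibres, read 118 in C57, 237 in 4B(+/+), 75.8 in 4B(-/-), 1027 in 4D(+/+) and 187 in 4D(-/-). Its paralogue Actn2, which slow fibres and heart muscle also use, read 166, 245, 262, 388 and 245, a range of 2.33-fold and the narrowest among the 30 genes. Myoz1, which tethers calcineurin at the Z-disc of fast fibres, read 122, 216, 97.1, 1190 and 198, and the Z-disc protein Myot read 82.8, 157, 94.4, 764 and 159.9. These 2 had a middle pair and a lower pair of arrays like the fast troponins. Tcap, which joins titin to the Z-disc, read 665, 613, 589, 1568 and 489.7, and so was lowest in 4D(-/-). Ttn, titin, read 434, 473, 370.2, 999 and 829.6, with 4D(-/-) close under 4D(+/+). Cmya5 read 158, 206, 187, 573 and 206, and the small heat shock protein Hspb3 reached 64 in 4D(+/+) only, at 85.0 against 22.5 to 26.9.

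Most of the calcium genes put 4B(-/-) at the bottom. Atp2a1, the fast fibre calcium pump, read 215 in C57, 349 in 4B(+/+), 121 in 4B(-/-), 1243 in 4D(+/+) and 335 in 4D(-/-). Pvalb, the calcium buffer parvalbumin of the fastest fibres, read 226, 447, 144, 2580 and 371, a range of 17.9-fold. Casq1, the calcium store protein of the reticulum, read 62.0, 100.3, 42.4, 414 and 97.8. All 3 were lower in 4B(-/-) than in any other array. Trdn, which anchors calsequestrin to the release channel, read 128, 208, 123, 882 and 214, with 4B(-/-) just under C57. Ryr1, the release channel, read 48.8, 51.9, 29.3, 167 and 63.6, and Cacna1s, its voltage sensor, read 39.6 in C57, 121 in 4D(+/+) and the same value, 55.0, in the other 3 arrays. Both were over 64 in 4D(+/+) only.

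The energy genes had a median range of 4.20-fold, narrower than thick filament (8.73-fold), thin filament (10.3-fold) and calcium genes (10.0-fold) and wider than Z-disc genes (3.62-fold), and in 4 of the 5 C57 was the lowest array. Ckm, the cytosolic creatine kinase of muscle, read 473 in C57, 1037 in 4B(+/+), 592 in 4B(-/-), 3855 in 4D(+/+) and 894 in 4D(-/-). Eno3, the muscle enolase, read 456, 912, 610.0, 3071 and 706. In both genes 4B(-/-) lay between C57 and 4D(-/-). Ckmt2, the mitochondrial creatine kinase, read 324, 592, 528, 1362 and 555. Mb, myoglobin, read 2115, 3260, 4047, 6694 and 2832, with 4B(-/-) second. Pygm, the muscle glycogen phosphorylase, read 107, 121, 96.4, 242 and 116. Its range of 2.51-fold was the narrowest of the 21 genes over the floor that were not listed as also abundant in heart muscle.

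The 4D(-/-) lung was compared with that of its wild-type line, 4D(+/+). With 1 array each, a difference can come from either array. Against C57 the median muscle gene was 6.71-fold higher in 4D(+/+) and 1.66-fold higher in 4D(-/-). Whether the loss of PDE4D has a part in the difference was not tested. Of the 30 muscle genes over the floor, 27 were at least 2-fold lower in 4D(-/-) against 1.18% of all 11105 genes, and 0 were higher, against 0.207%. The median log2 difference was -2.03, a 4.10-fold lower level, where all genes had a median of 0.00. The differences ran from -2.88 for Mylpf, 7.35-fold, to -0.27 for Ttn, 1.20-fold. Tmod4 was 7.10-fold lower, Pvalb 6.95-fold, Tnni2 6.57-fold and Myoz1 6.02-fold. Tmod4 and Neb were over the floor only through their high 4D(+/+) level, from which this difference is taken. Myh1, Actn2 and Ttn were the 3 genes inside 2-fold, at 1.63-fold, 1.58-fold and 1.20-fold lower. By role, the median was -2.27 for 7 thin filament genes, -2.06 for 4 calcium genes, -1.82 for 7 thick filament genes, -1.68 for 7 Z-disc genes and -1.29 for 5 energy genes. The heavy chains Myh4 and Myh2 were 2.51-fold and 3.54-fold lower, less than the light chains Mylpf and Myl1 (5.23-fold), and Neb was 2.26-fold and Tnnt1 2.29-fold lower.

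The matching comparison for the PDE4B lines gave differences that were smaller for most genes and went both ways. In 4B(-/-), 10 of the 30 genes were at least 2-fold lower than in 4B(+/+), against 0.27% of all genes, and 0 were higher, against 0.072%. The median was -0.85, or 1.80-fold, beside 0.01 for all genes. For Myh4, Myh1 and Ttn the difference was larger than in the 4D pair, at 6.81-fold, 1.98-fold and 1.28-fold. The 10 were Myh4 (6.81-fold), Actn3 (3.13-fold), Pvalb (3.10-fold), Atp2a1 (2.89-fold), Casq1 (2.37-fold), Myoz1, Tnnc2, Mybpc2, Myl1 and Tnnt3 (2.01-fold). Myh2 was 1.66-fold, Tnnt1 1.37-fold, Mb 1.24-fold and Actn2 1.07-fold higher in 4B(-/-), while all 4 were lower in 4D(-/-) than in 4D(+/+). The calcium genes had the lowest median, -1.39, followed by thick filament (-0.98) and thin filament genes (-0.91), with -0.35 for the Z-disc and -0.33 for energy genes. Of the 30 genes, 26 lay below 0 and these 4 above it.

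**Figure D2:**
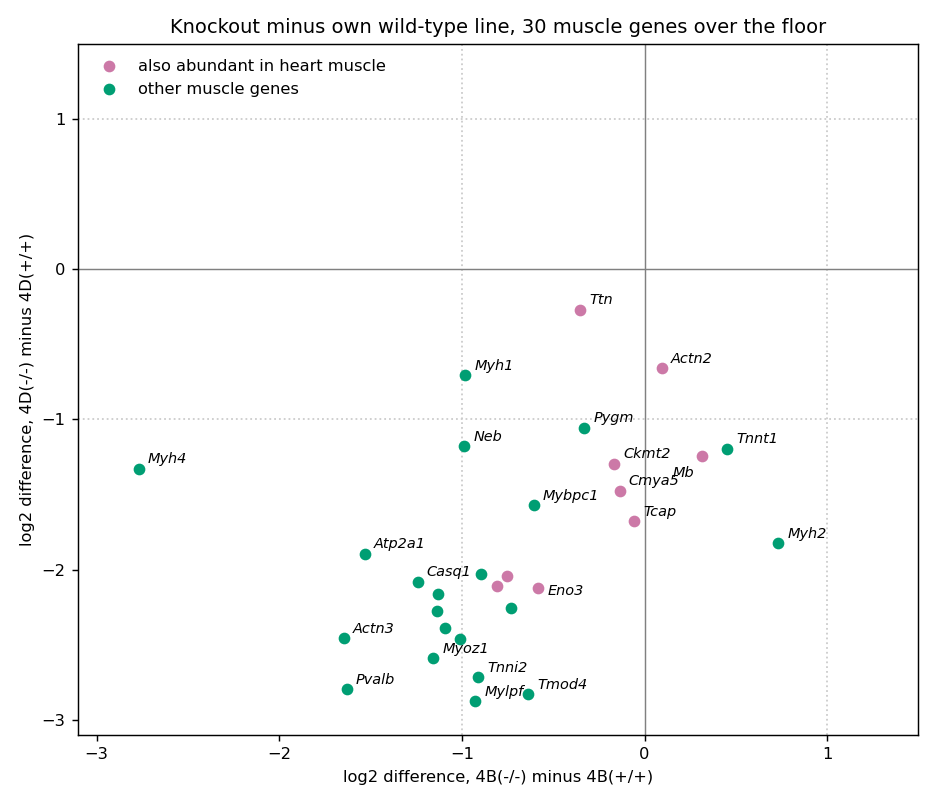
log2 difference of each knockout from its own wild-type line, 4B on the x axis and 4D on the y axis, for the 30 genes over the floor, with 9 genes that heart muscle also expresses in abundance in pink and the other 21 in green. All points lie below 0 on the y axis; Myh4 stands alone at the left, and Myh2, Tnnt1, Mb and Actn2 lie right of 0.

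The 3 wild-type arrays differed from each other as well. All 30 genes were at least 2-fold higher in 4D(+/+) than in C57, against 1.47% of all genes, and 0 were lower, against 0.162%. For Tmod4 and Neb this was in part set by the floor, which they passed through 4D(+/+) alone. The others passed it without that array. The median was 2.75, or 6.71-fold. The 4 genes under the floor were 1.09-fold (Tnni1), 3.06-fold (Cacna1s), 3.42-fold (Ryr1) and 3.67-fold (Hspb3) higher there. In 4B(+/+) 10 of the 30 were at least 2-fold above C57, against 0.729% of all genes, and 0 below, against 0.171% (median 0.85). Only Tcap was lower in 4B(+/+) than in C57, by 1.08-fold. Between the wild-type lines themselves 28 genes were higher in 4D(+/+) than in 4B(+/+), against 0.648% of all genes, and 0 lower, against 0.063% (median 1.87). The exceptions were Actn2 at 1.58-fold and Pygm at 1.99-fold. These comparisons share arrays with those of the knockouts, and the 4D(+/+) array enters 3 of the 8 comparisons and the C57 array 4.

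Set against C57, the median muscle gene was level in 4B(-/-) and higher in 4D(-/-). In 4D(-/-) 4 of the 30 genes, Myh4 (2.55-fold), Tnnc2 (2.16-fold), Myh1 (2.04-fold) and Mylpf (2.01-fold), were at least 2-fold higher than in C57, against 0.306% of all genes. None was 2-fold lower, against 0.153%, and the median was 0.73, or 1.66-fold higher. In 4B(-/-) 1 gene was higher, Myh2 at 3.41-fold (background 0.576%), and 1 lower, Myh4 at 3.47-fold (background 0.585%), around a median of 0.00 with 15 genes above and 15 below it. The 4D(-/-) array was higher than 4B(-/-) for 10 genes (background 0.468%), led by Myh4 at 8.84-fold, and lower for Myh2 at 2.12-fold (background 0.315%).

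The fast and slow members of 1 family differed in 4B(-/-). The pairs below were picked after their values were seen and are given as a description. Myh4 relative to Myh2, both taken relative to C57, was 0.96 in 4B(+/+), 1.12 in 4D(+/+) and 1.58 in 4D(-/-) but lay 11.8-fold under C57 in 4B(-/-). Tnnt3 relative to Tnnt1 was 1.70-fold under C57 in 4B(-/-) and 1.62, 3.13 and 1.30 times C57 in 4B(+/+), 4D(+/+) and 4D(-/-). In C57 Myh2 read 57.8 and Tnnt1 58.8, both under 64, so the sizes of these ratios relative to C57 are poorly determined. Actn3 relative to Actn2 was 2.46-fold under C57 in 4B(-/-), against 1.36, 3.72 and 1.07 times C57 in the same 3 arrays. For Mybpc2 relative to Mybpc1 the range was narrower, from 1.35-fold under C57 in 4B(-/-) to 1.29 times C57 in 4D(+/+), and 4D(-/-) was also under C57, by 1.17-fold. Myh4 relative to Myh1 was 2.64-fold under C57 in 4B(-/-) and 1.25 to 1.92 times C57 in the other 3 lines. In all 5 pairs the ratio of the faster to the slower or more oxidative isoform was lowest in 4B(-/-), and in 4 of them it was highest in 4D(+/+). The pairs with Myh2 and with Myh1 share the Myh4 values, so the 5 pairs are not separate, and Actn2 is also abundant in heart muscle.

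**Figure D3:**
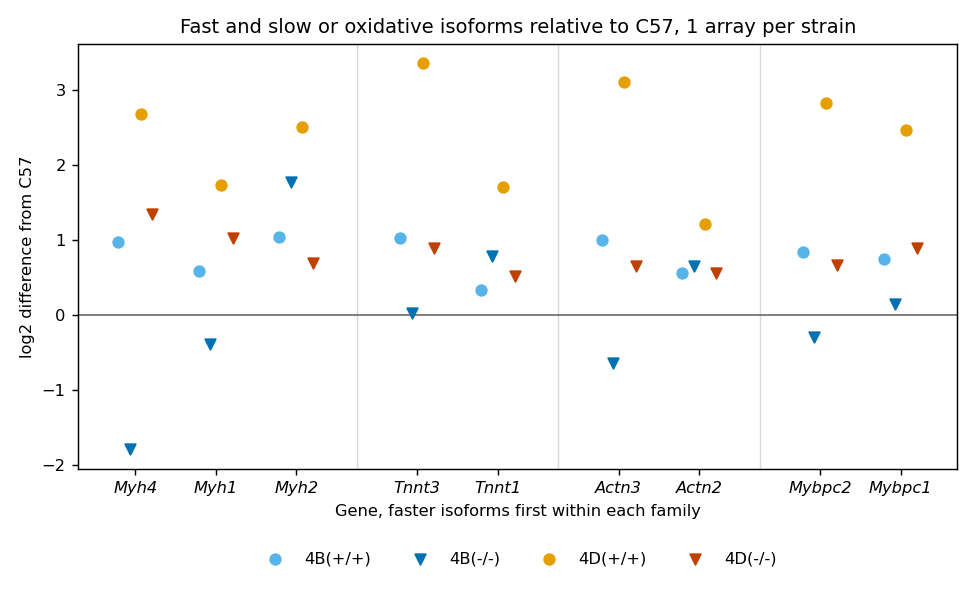
log2 difference from C57 for heavy chains, troponin T, alpha-actinin and myosin-binding protein C, with faster isoforms first in each family and 1 point for each of the other 4 arrays. For 4B(-/-) Myh4, Myh1, Actn3 and Mybpc2 lie under 0, Tnnt3 lies near 0, and Myh2, Tnnt1, Actn2 and Mybpc1 lie above it; 4D(+/+) is highest for every gene.

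Of the 34 genes, 9, namely Actn2, Ckm, Ckmt2, Cmya5, Eno3, Mb, Tcap, Trdn and Ttn, are also abundant in heart muscle. Their median range over the arrays was 3.62-fold, against 10.1-fold for the other 21 over the floor. In 4B(-/-) against 4B(+/+) their median was -0.16, against -0.99 for the others, and 0 of the 9 and 10 of the 21 were 2-fold lower, against 0.27% of all genes. In 4D(-/-) against 4D(+/+) the medians were -1.47 and -2.16, with 7 of 9 and 20 of 21 genes 2-fold lower, against 1.18% of all genes. In the cardiac muscle list Myl7, the atrial light chain, was highest in 4B(-/-), where it read 5169 against 2875 to 3880 in the other arrays. The list's summed intensity, over 12 genes, was 22769 in 4B(-/-), between 18057 and 19244 in the other 3 lines, and 15735 in C57. Of its 10 genes over the floor 0 passed 1.5-fold between 4B(-/-) and 4B(+/+) (background 0.279% higher and 0.747% lower). Against C57, 7 of the 10 were at least 1.5-fold higher in 4B(-/-) (background 2.27%) and 0 lower (background 3.41%). The median log2 difference there was 0.75. Nppa alone, at 2.21-fold in 4B(-/-), passed 2-fold against C57 (background 0.576%). Only Nkx2-5 of that list was under 64 everywhere. The part of heart muscle in the values of the shared genes was not tested.

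In the set, 10 genes had more than 1 probe set, 21 further probe sets in all, of which 13 stayed under 64 in all arrays. Another Myh1 probe set read 1046 in C57, 1639 in 4B(+/+), 832 in 4B(-/-), 4235 in 4D(+/+) and 2204 in 4D(-/-), the order of the first. Another for Tnni2 was 4.20-fold lower in 4D(-/-) than in 4D(+/+), where the brightest gave 6.57-fold. For Ttn, 2 further probe sets over 64 were 1.20-fold and 1.01-fold apart in that comparison, the latter with 134 in 4D(-/-) and 133 in 4D(+/+). Trdn had probe sets that disagreed. While 3 of them had 4D(+/+) at the top by a wide margin, at 882, 713 and 182, another read 134 in C57, 157 in 4B(+/+), 192 in 4B(-/-), 170.3 in 4D(+/+) and 152 in 4D(-/-). Which Trdn transcripts each probe set reads was not tested.

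The promoters of some of these genes are shown because these genes had the widest ranges over the arrays. They are windows of 300 bases, 250 before and 50 after the start site, from RefSeq on GRCm38.p6. Entries were found for 26 of the 34 genes. The 4 genes with the widest range among those with an entry were Myh4 at chr11:67237562-67237861 (+ strand), Pvalb at chr15:78206351-78206650 (- strand), Mylpf at chr7:127211358-127211657 (+ strand) and Tnnc2 at chr2:164779685-164779984 (- strand). Myh2 at chr11:67170777-67171076 (+ strand) was added after its values were seen, since Myh2, Myh1 and Myh4 lie next to each other in that order on chromosome 11 and yet differ in 4B(-/-). Pvalb has 2 entries, and that at the outer end of the gene is given. Capitals mark matches on either strand to the E-box (CANNTG, bound by myogenic factors such as MyoD), the MCAT element (CATTCC), the TATA box (TATAAA), the MEF2 site or the CArG box.
Myh4: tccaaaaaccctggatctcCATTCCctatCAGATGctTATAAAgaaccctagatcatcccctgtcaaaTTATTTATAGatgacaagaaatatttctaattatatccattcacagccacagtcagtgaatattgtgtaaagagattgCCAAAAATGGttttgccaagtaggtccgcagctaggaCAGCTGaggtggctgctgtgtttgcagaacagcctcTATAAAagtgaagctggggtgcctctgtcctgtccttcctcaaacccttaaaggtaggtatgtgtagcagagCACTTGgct
Myh2: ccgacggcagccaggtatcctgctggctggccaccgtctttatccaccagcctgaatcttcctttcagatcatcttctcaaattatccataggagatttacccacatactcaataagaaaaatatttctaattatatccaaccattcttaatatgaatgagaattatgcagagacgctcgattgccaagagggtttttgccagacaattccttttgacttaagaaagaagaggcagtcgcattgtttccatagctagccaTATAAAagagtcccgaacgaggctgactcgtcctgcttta
Pvalb: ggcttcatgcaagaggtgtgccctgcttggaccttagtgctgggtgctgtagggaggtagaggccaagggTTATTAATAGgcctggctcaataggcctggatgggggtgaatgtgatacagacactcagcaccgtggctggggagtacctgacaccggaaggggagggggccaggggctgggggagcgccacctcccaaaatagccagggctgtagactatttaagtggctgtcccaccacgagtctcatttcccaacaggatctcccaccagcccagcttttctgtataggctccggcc
Mylpf: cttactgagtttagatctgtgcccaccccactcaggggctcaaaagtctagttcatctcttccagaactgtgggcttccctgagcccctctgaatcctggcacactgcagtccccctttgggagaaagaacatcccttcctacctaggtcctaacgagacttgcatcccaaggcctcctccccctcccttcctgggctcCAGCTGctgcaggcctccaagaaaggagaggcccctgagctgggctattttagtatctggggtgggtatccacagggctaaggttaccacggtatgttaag
Tnnc2: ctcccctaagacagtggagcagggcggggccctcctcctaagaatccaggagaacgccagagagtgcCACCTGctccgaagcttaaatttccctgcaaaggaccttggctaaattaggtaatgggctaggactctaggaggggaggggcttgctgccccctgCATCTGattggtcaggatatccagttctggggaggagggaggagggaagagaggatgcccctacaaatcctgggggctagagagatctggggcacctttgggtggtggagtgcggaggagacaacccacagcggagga
The Myh4 window held 3 E-boxes, 1 MEF2 site, 1 MCAT element, 1 CArG box and 3 TATA boxes, with 6 bases shared by a MEF2 and a TATA match. The Myh2 window held a TATA match alone, which began 10 bases after the start site, and Pvalb a MEF2 site alone. Mylpf held 1 E-box and Tnnc2 held 2. Of the 30 windows of the 26 genes, 86.7% held an E-box, against 72.3% of all 32851 windows. The MEF2 site was in 16.7% against 3.19%, the MCAT element in 26.7% against 14.7%, the TATA box in 23.3% against 13.6% and the CArG box in 6.67% against 1.63%. These are matches of letters only, and 30 windows are few.

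Other muscle genes, 73 symbols listed for their role in muscle, shared the high level in 4D(+/+), with smaller differences, but not the order of the other arrays. Of them 66 were measured and 37 were over the floor. Some of the 37 passed it through a high 4D(+/+) value, which favours a high count for that array. Klhl41 read 36.2 to 73.5 outside 4D(+/+), and Jsrp1 read 45.2 to 69.8 outside it and 121 in it. How many of the 37 pass the floor without 4D(+/+) was not counted. In 4D(+/+) 20 of the 37 were at least 2-fold above C57, against 1.47% of all genes, and 0 below, against 0.162%, with a median log2 difference of 1.28. In 4D(-/-) 16 were at least 2-fold lower than in 4D(+/+), against 1.18% of all genes, and 0 higher, against 0.207% (median -0.91). In 4B(-/-) against 4B(+/+) 0 of the 37 passed 2-fold in either direction (background 0.27% lower and 0.072% higher), with a median of -0.01. In 4D(-/-) against 4B(-/-) 0 were higher (background 0.468%) and 1 lower (background 0.315%), with a median of -0.06. The sarcomere genes Ankrd23 and Klhl41, a stretch-responsive titin partner and a nebulin stabiliser, read 557 and 239.6 in 4D(+/+) and 80.5 and 36.2 in C57. Of the metabolic genes, Pgam2, the muscle phosphoglycerate mutase, read 1763 in 4D(+/+) against 296 to 550.3 in the other arrays, and Apobec2 766 against 136 to 199.7. Cox8b and Cox7a1, subunits of cytochrome oxidase in muscle and brown fat, had 4B(+/+) and 4B(-/-) well above 4D(-/-), with Cox8b at 1258, 1166 and 508. Of 12 measured muscle regulators, 8 stayed under 64 in all arrays, among them Myod1, Myog, Myf5 and Pax7. Mef2c, which many cell types express, was 1 of the 2 over the floor, with 565 in 4D(+/+) and 275 to 489.5 in the others.

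Genes of neighbouring tissues varied among the arrays as well, and not all in the order of the muscle genes. The thyroid and parathyroid list had summed intensities over 5 genes of 5228 in C57, 11064 in 4B(+/+), 1004 in 4B(-/-), 16601 in 4D(+/+) and 4319 in 4D(-/-). The sums of both knockouts were thus below that of C57. In 4D(-/-) Tg was lower than in C57, at 1687 against 3065. Pth (2155 against 1799) and Chga (431 against 319) were higher in 4D(-/-) than in C57. All of Tg, Pth and Chga were highest in 4D(+/+) and lowest in 4B(-/-), as was Myh4, while Slc5a5 and Pax8 of that list stayed under 64. The squamous epithelium sum reached 1693 in 4D(+/+), with the remaining arrays between 483 and 913. Its 5 arrays were ordered as for the sum of the muscle genes, but most of its named genes were not. Krt4 of the oesophageal lining read 466 in 4D(+/+), 287 in 4D(-/-), 117 in 4B(+/+) and 42.9 in C57. Krt15 had 4D(-/-), at 270, under 4B(+/+) and 4B(-/-), at 501 and 425. Krt6a had 4D(-/-), at 70.4, just over 4B(+/+), at 68.6. Krt5 had the order of the sum, within a range of 1.64-fold. The adipose sum was 18052 in 4D(+/+), 16286 in 4B(+/+), 14319 in 4B(-/-), 9104 in C57 and 8720 in 4D(-/-), so 4D(-/-) was lowest here. Cartilage was highest in 4B(+/+), 4.54 times C57, and so was the tendon sum, 2.14 times C57, through Chad and Fmod. The tendon gene Tnmd had another order, with 66.5 in C57, 163 in 4B(+/+), 48.3 in 4B(-/-), 354 in 4D(+/+) and 56.9 in 4D(-/-), and Thbs4 was also highest in 4D(+/+). The list of genes shared by slow muscle and ventricle was highest in 4B(-/-), with a sum of 5007 against 4386 in 4D(+/+) and 2506 in C57. Its Myl3 was highest in 4D(+/+), with 290.0 there, 286 in 4B(-/-) and 111 in C57. The part of tissue from beside the lung in these values was not tested.

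**Figure D4:**
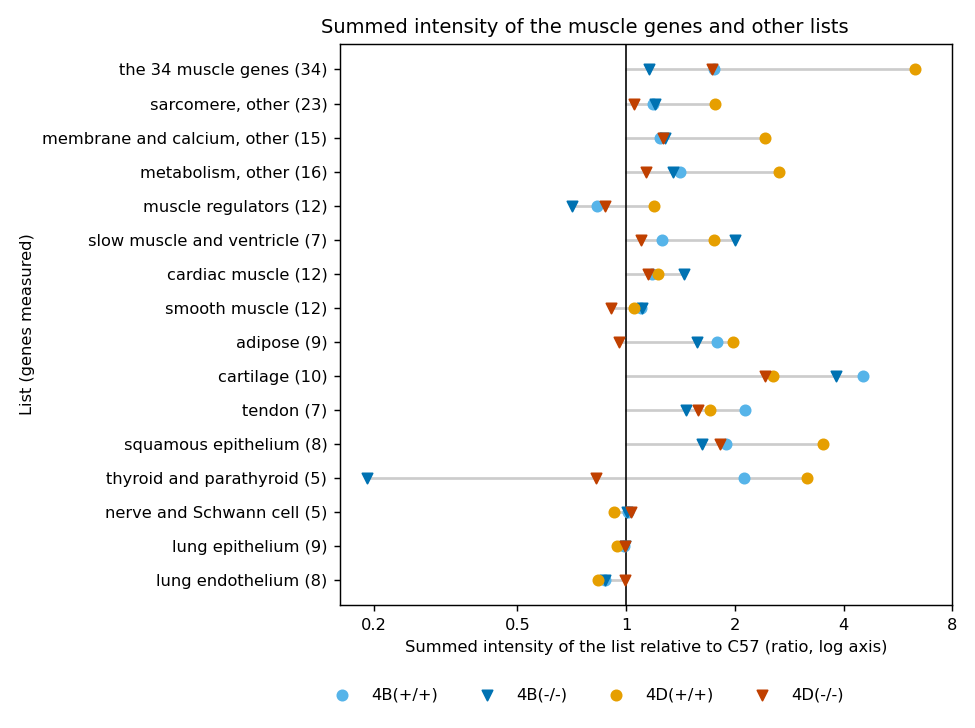
Summed intensity relative to C57 (ratio, log axis) of the 34 genes and of 15 other lists, with the number of genes measured in brackets and 1 point for each of the other 4 arrays. The muscle genes reach 6.31 in 4D(+/+); the thyroid and parathyroid list lies at 0.192 in 4B(-/-); lung epithelium and endothelium stay between 0.836 and 0.994.

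Genes of the lung itself differed less. Lung epithelial genes had a sum of 111679 in 4D(+/+) and of 116316 to 118250 elsewhere, and 0 of 9 of them passed 2-fold in any of the 8 comparisons. Of all genes 0.063% to 1.47% passed 2-fold in each direction, so a count of 0 in a short list is near the background. Smooth muscle genes, 12 in all, summed to 16988 in 4D(-/-) and to 18747 to 20798 elsewhere, again with 0 past 2-fold. At 1.5-fold, 5 of the 12 were lower in 4D(-/-) than in 4B(-/-), against 2.87% of all genes, and 0 higher, against 2.6%. The sum of 8 lung endothelial genes was 0.836 times C57 in 4D(+/+), 0.873 in 4B(-/-), 0.875 in 4B(+/+) and 0.990 in 4D(-/-), and Calcrl, a receptor subunit of these cells, had a range of 1.71-fold. Signs of RNA quality were set beside the muscle genes. The 3' to 5' ratio of the Gapdh control was 1.31 in 4D(+/+), 1.37 in 4B(+/+), 1.57 in 4B(-/-), 1.72 in C57 and 1.77 in 4D(-/-), and that of the actin control was 1.62 to 1.88, with 1.83 in 4D(+/+). The Gapdh ratio was thus lowest in the 2 wild-type lines, which had the highest and next highest sums of the muscle genes, although 4D(-/-) had nearly the same sum as 4B(+/+). Its part in the result was not tested.

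Profiles like that of the muscle genes were sought among the other 11075 genes over the floor. The median profile of the 30 genes, each centred on its own mean on the log2 scale, was 1.95 in 4D(+/+), -0.05 in 4B(+/+), -0.14 in 4D(-/-), -0.84 in C57 and -0.88 in 4B(-/-). Likeness was measured by the root mean square distance over the 5 arrays. The profile was made from the 30 genes themselves, so they lie near it in part by construction. How many of them lie near it is a description and not a test. Trdn lay nearest to that profile (0.043), followed by Mybpc2 (0.11) and Acta1 (0.12), and Myh4 (0.82), Myh2 (0.74) and Actn2 (0.73) lay farthest. Within a distance of 0.3 there were 15 of the 30 genes and 2 of the other 11075, Klhl41 (0.13) and Apobec2 (0.25). Of the 12 nearest other genes 7 were on the lists above, namely these 2 with Ankrd23, Pgam2, Smpx, Hjv and Trim54. The remaining 5 were Scn4b, Serpinb11, Ddit4l, Rbfox1 and Dio1, at distances of 0.38 to 0.46. The floor itself favours such profiles, since a bright 4D(+/+) array raises the mean that it uses. Klhl41 read 239.6 in 4D(+/+) and 36.2 to 73.5 elsewhere, and Scn4b read 165 there and 41.7 to 56.4 elsewhere. How many genes near the profile pass the floor without 4D(+/+) was not counted. Dio1, the type 1 deiodinase of thyroid and liver, read 184 in 4D(+/+) and 37.6 in 4B(-/-).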

How the data were processed

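Gene expression was measured in whole lung with 1 array for each of 5 strains. The authors deposited linear intensities, 1 for each probe set on each array, and the submitters' processing notes name RMA, which corrects background, equalises the distributions of the arrays and summarises probes. Version and genome build: not given in the sources used here. The median intensity was 45.4 to 46.6, and the arrays correlated at 0.977 to 0.992 over the 11105 genes over the floor, which are not independent. Detection calls were not used here.

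Intensities were taken to log2 with Python 3.11.15 and pandas 2.3.3. In the platform annotation 34958 probe sets had 1 symbol and were used, 932 had several and 9211 had none. The floor decides which genes enter a count, and a gene can pass it through 1 bright array. RMA summaries hold ties, such as Cacna1s at the same value in 3 arrays, that set small differences to 0. Counting was tested on simulated data. Cyclic loess used limma 3.58.1 (R 4.3.3). Listed symbols lacking in the annotation were matched through RefSeq synonyms.

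The 34 genes, all lists and the rules were chosen with earlier results of these data known, and the isoform pairs after their values were seen. Named genes are all 34, up to 4 of each list with the widest range over the arrays, and the 12 nearest profiles; Myod1, Myog, Myf5, Pax7, Slc5a5, Pax8 and Nkx2-5 are named outside this rule for lying under 64. No test between strains was run, since each strain has 1 array. Alternatives were other floors, folds, probe set summaries and normalizations, and leaving out genes shared with the heart.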

Additional observations from a re-analysis of the deposited data

Results flagged for a closer look

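Myh2, the oxidative fast myosin, went in opposite directions in the 2 knockout comparisons, past 1.5-fold in each. It was 1.66-fold higher in 4B(-/-) than in 4B(+/+) and 3.54-fold lower in 4D(-/-) than in 4D(+/+), so the 2 log2 differences lay 2.56 apart. With 1 array per strain this difference was not tested. Tnnt1, Mb and Actn2 had the same signs, but their 4B differences, 1.37-fold, 1.24-fold and 1.07-fold, stayed within 1.5-fold.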

How the results depend on the processing

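The medians of all 8 comparisons moved by less than 1.5-fold under each of the 8 alternatives that apply to them, and the sign held except in 4B(-/-) against C57, where the median ranged from -0.03 to 0.02. In 4D(-/-) against 4D(+/+) the range was -2.16 to -1.86, and in 4B(-/-) against 4B(+/+) -0.99 to -0.78. Of 160 counts, 146 stayed the same or within 1.5 times the value reported. Among these are counts of 0 that stayed at 0, which say little about how firm the results are. At 1.5-fold, 20 genes were lower (0.747% of all genes) and 1 higher (0.279%) in 4B(-/-) than in 4B(+/+), 23 higher in 4B(+/+) than in C57 (1.96%), 5 higher (2.27%) and 5 lower (3.41%) in 4B(-/-) than in C57, 23 higher in 4D(-/-) than in C57 (1.27%), and 20 higher in 4D(-/-) than in 4B(-/-) (2.6%). At 3-fold, 3 were lower in 4B(-/-) than in 4B(+/+) (0.18%), 0 higher in 4B(+/+) (0.18%) or 4D(-/-) (0.063%) than in C57, and 2 higher (0.162%) and 0 lower (0.09%) in 4D(-/-) than in 4B(-/-). With each array centred on its median, 2 genes were 2-fold higher in 4D(-/-) than in C57, and with each gene as the median over its probe sets 0 were lower in 4B(-/-) than in C57. Before centring, Mylpf (2.01-fold) and Myh1 (2.04-fold) lay close to the 2-fold limit in 4D(-/-) against C57. The median over probe sets combines Myh4, 3.47-fold lower in 4B(-/-) than in C57, with a probe set under 64 that was 1.06-fold lower. The part of these values in the last 2 counts was not tested separately. No paired analysis was possible because each strain has 1 array. Folds against intensities under 64 rest on values near background and are poorly determined.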
